A study of Mus musculus with 27 samples.

Results

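The comparison covers propranolol added to hearts in which thyroid hormone synthesis and alpha-adrenergic receptors were already blocked. Its members were taken from the sample titles: 6 of the 27 whole-heart RNA sequencing libraries, namely PTU+PHE+PRO hearts 1 to 3 and PTU+PHE hearts 1 to 3, all in set A. All 6 came from CD-1 mice, an outbred stock, at postnatal day 14. Mothers of both groups ate an iodine-deficient diet with 0.15% propylthiouracil (PTU) from E13.5, in mid-gestation, and pups of both groups received phenoxybenzamine (PHE, 10 ug/g/day) under the skin each day from postnatal day 1. The PTU+PHE+PRO pups also received propranolol (PRO, 20 ug/g/day), so the PTU+PHE pups differed from them by that one agent. Set beside this pair were PHE+PRO against PHE in set A, and PTU+PRO against PTU in set B, with 3 hearts in each group. The labels name no litter, so hearts of 1 group may share a mother. The p-values rest on a spread between libraries that was estimated over all 9 groups of the series, not over this pair alone.

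Propranolol blocks beta-adrenergic receptors, which in heart muscle act through cyclic AMP and protein kinase A. One target of that kinase is phospholamban, a small membrane protein that inhibits SERCA, the pump that returns calcium to the sarcoplasmic reticulum. A second small membrane protein, known as DWORF and encoded by Strit1, competes with phospholamban and raises pump activity. Thyroid hormone and catecholamines both rise after birth in mice, as the heart passes to adult sarcomere proteins and fatty acid oxidation.

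The clearest change was a 10.0-fold fall of the transcript for DWORF. With it fell Syt7 and the muscle ubiquitin ligase Fbxo32. Smooth muscle actin Acta2, the actin crosslinker Flna and the transcription factor Srf rose. The beta-receptor transcript Adrb1, 20 immediate early genes and both cardiac myosins did not pass the test.

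The annotation used here calls the DWORF gene Gm34302 (ENSMUSG00000103476), and RefSeq gives Strit1 and DWORF for the same locus. It lies on the minus strand of mm10 at chr3:63481112-63483879, has 3 exons, and was picked out here after its values were seen. Its coding sequence spans chr3:63481290-63483827 across 2 exons and encodes 34 amino acids, so the reads come from a very short transcript. It is shown spliced, 5′ to 3′, from the GENCODE transcript table, with the start and stop codons in capitals.
Strit1 coding sequence: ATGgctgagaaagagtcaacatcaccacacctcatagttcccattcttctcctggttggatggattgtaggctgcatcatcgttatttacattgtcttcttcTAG

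Levels are given as CPM, read counts scaled to a common library size after TMM normalization, which corrects for library size and composition but not for transcript length. Strit1 had 1.55, 1.22 and 0.938 CPM in PTU+PHE+PRO hearts 1, 2 and 3, against 11.2, 11.8 and 15.1 CPM in PTU+PHE hearts. These values rest on 103, 51 and 32 reads in PTU+PHE+PRO hearts and on 854, 709 and 742 reads in PTU+PHE hearts. The groups were far apart, and every PTU+PHE heart lay within or just above the 8.99 to 14.6 CPM of the saline hearts of set A. The log2 fold change was -3.33 ± 0.28 (SE from the fit of all 27 libraries, n = 3 each). Its adjusted p was 4.5e-07 by edgeR's quasi-likelihood test with Benjamini-Hochberg adjustment. No other annotated gene of the table overlaps Strit1, and its head-to-head neighbour Gm37279 held at most 3 reads in any library.

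Within each pair the same transcript was lower with propranolol. Across pairs, PTU hearts without propranolol stood below the PHE+PRO hearts. PHE+PRO hearts had 4.095, 5.61 and 4.64 CPM, against 27.5, 23.6 and 31.45 CPM in PHE hearts (log2 fold change -2.525 ± 0.26, adjusted p = 1e-05). PTU+PRO hearts had 0.569, 0.353 and 0.2835 CPM, against 4.0, 3.565 and 4.05 CPM in PTU hearts (log2 fold change -3.255 ± 0.30, adjusted p = 2.5e-06). Hearts given propranolol alone in set B had 1.58, 2.755 and 0.997 CPM, against 10.7, 8.89 and 9.49 CPM in saline hearts of that set, a pair for which no test was run here. The propranolol effects on Strit1 did not differ detectably between backgrounds, with adjusted p = 0.32 for PTU plus PHE minus PHE and 0.98 for PTU plus PHE minus PTU.

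Other genes of sarcoplasmic reticulum calcium cycling moved less. Of 20 tested members of that list, 3 rose and 1 fell, where 2.87% of all genes tested were called in either direction. None of the 4 was called in the fit of set A or in all 6 fits that left out 1 library. Pln, phospholamban, had 1327, 1369 and 1163 CPM in PTU+PHE+PRO hearts, against 1677, 1918 and 1656 CPM in PTU+PHE hearts (log2 fold change -0.44 ± 0.11, adjusted p = 0.028). Atp2a2, which encodes the cardiac SERCA pump, had 1944, 1210 and 1669 CPM in PTU+PHE+PRO hearts, against 1669, 1749 and 1702 CPM in PTU+PHE hearts, and did not pass the test (-0.09 ± 0.14). The risers were the fast-muscle pump Atp2a1 at 0.448 to 1.58 CPM, and the calmodulin kinase subunits Camk2b (log2 fold change 0.62) and Camk2g (0.37). Cacna2d2, an auxiliary calcium channel subunit, rose by 1.57 on the log2 scale with 6.17, 2.42 and 5.16 CPM in PTU+PHE+PRO hearts, against 1.76, 2.01 and 0.834 CPM in PTU+PHE hearts. The receptor kinase Grk5, which desensitises adrenergic receptors, fell by 0.54. The Cacna2d2 call was kept in 1 of the 6 fits that left out 1 library, and the Grk5 call in 2. Neither gene was called in the fit of set A.

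Across all 19119 genes tested, 549 were called at an adjusted p under 0.05 (2.87%), of which 289 rose (1.51%) and 260 fell (1.36%), and 89 of them changed at least 2-fold. Non-overlap alone was common: 2228 of the 19119 genes (11.7%) had no overlap between the 3 PTU+PHE+PRO and the 3 PTU+PHE hearts, and 501 of the 549 called genes were among them. That count rests on a spread estimated over all 9 groups of the series. The median SD of log2 CPM between hearts was 0.227 in PTU+PHE+PRO and 0.178 in PTU+PHE, above the 0.066 to 0.142 of the other 7 groups. With the 15 libraries of set A alone, 70 genes were called, all among the 549. With the 6 libraries alone, 3 were called, Strit1 and the processed pseudogenes Gm13453 and Gm11942, and 999 had an unadjusted p under 0.05. The genes called with all libraries kept their sign there in 540 cases, counted only among genes that this smaller fit tested. That fit uses the same 6 hearts, so the sign was nearly fixed in advance and lends the calls no support. Leaving out 1 of the 6 libraries gave 229 to 1041 calls, and 124 of the 549 were called in all 6 of these fits. Both pseudogenes also swung between hearts of 1 group elsewhere: Gm13453 had 163, 9 and 184 reads in the saline hearts of set A.

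**Figure D1:**
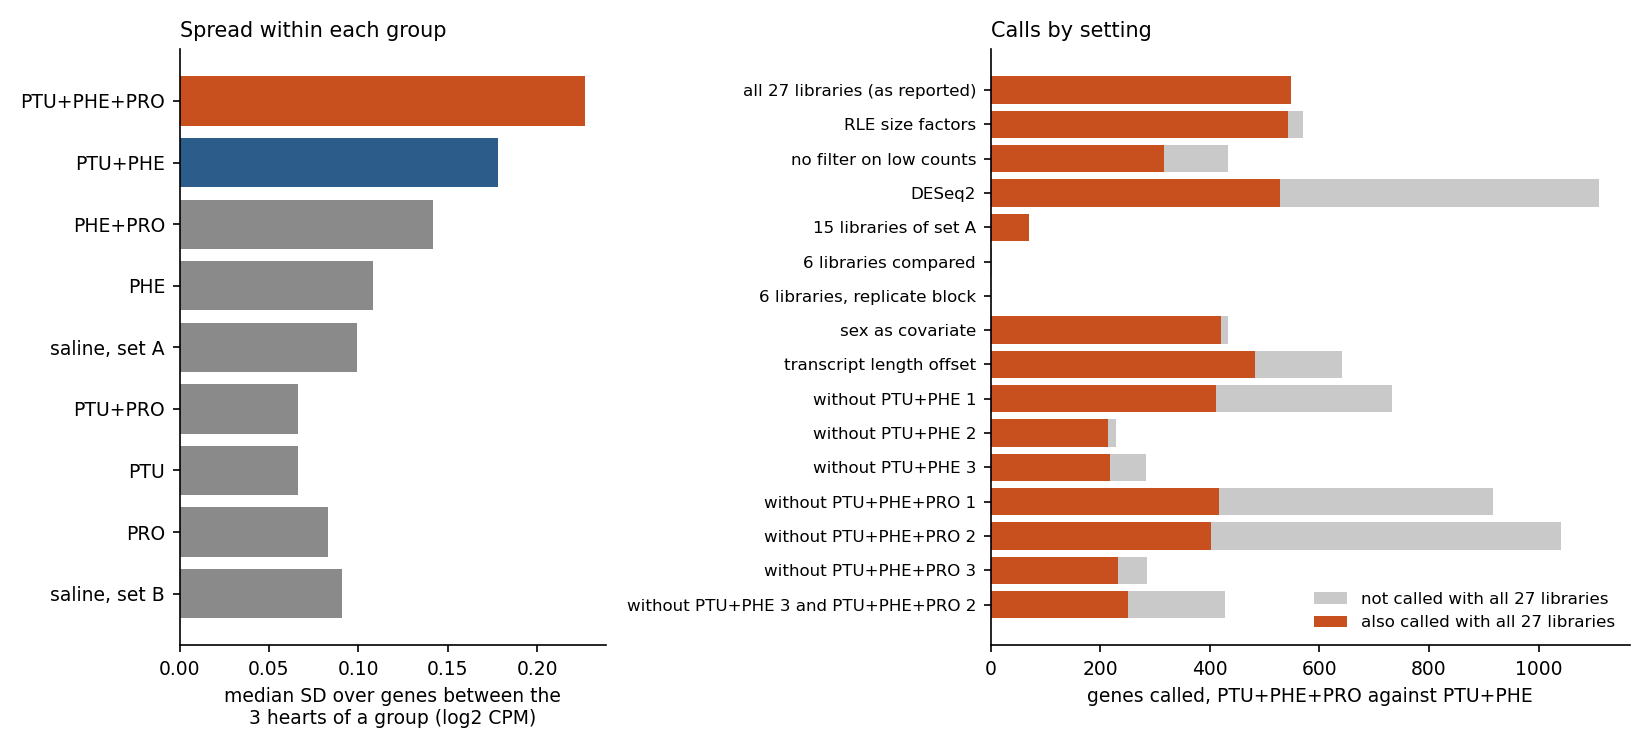
Left, the median SD over 10799 genes of log2 CPM between the 3 hearts of each group; right, the number of genes called for PTU+PHE+PRO against PTU+PHE in each of 16 settings, with orange for genes also called when all 27 libraries were fitted. PTU+PHE+PRO (0.227) and PTU+PHE (0.178) have the longest bars on the left, and the fits of set A (70) and of the 6 libraries (3) have almost none on the right.

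One library in each group stood apart. PTU+PHE+PRO heart 2 and PTU+PHE heart 3 were low in long transcripts. For each gene, log2 CPM was first taken relative to its mean over all 27 libraries. The median of genes with over 8000 exon bases minus that of genes with under 1000 was then taken. It was -0.236, -0.822 and -0.033 in PTU+PHE+PRO hearts, against -0.205, -0.307 and -0.82 in PTU+PHE hearts. These 2 libraries led the first principal component of the 6, which held 39.0% of the variance. Without both, 428 genes were called, 251 of them among the 549. The groups also differed in sex, with hearts 2 and 3 of PTU+PHE+PRO and heart 1 of PTU+PHE male, and in depth, with 62134596, 43578870 and 30791885 assigned reads in PTU+PHE+PRO libraries, against 71796054, 58043981 and 52065876 in PTU+PHE libraries. Called genes were longer than most: the median exon length was 6148 bases in raised genes, 4025 in lowered genes and 3627 over all genes tested. The part of sex, depth and transcript length in any single gene's change was not tested beyond the fits with sex (433 calls) and transcript length (641 calls) as corrections. With the length correction, 300 genes rose and 341 fell.

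Cell type markers overlapped between the groups, with 1 exception. The summed CPM of 10 cardiomyocyte markers was 69310, 77810 and 56270 in PTU+PHE+PRO hearts, against 72130, 69860 and 73250 in PTU+PHE hearts. Of 23 cell type lists, 22 overlapped between the groups; the early thymocyte genes Rag1, Rag2 and Dntt and the lung gene Sftpc had at most 3 reads in each of the 6 libraries. The 10 atrial markers summed to 243, 487 and 343 CPM in PTU+PHE+PRO hearts, against 232, 54.7 and 160 CPM in PTU+PHE hearts and 80.3 to 109.9 CPM in saline hearts of set A. The largest swings in that sum were those of Nppa, the natriuretic peptide of atria and stressed ventricle, at 174, 388 and 269 CPM in PTU+PHE+PRO hearts, against 182, 2.31 and 91.6 CPM in PTU+PHE hearts. Stard10 was the atrial marker that passed the test (log2 fold change 0.86). In whole-heart RNA, fewer cells of a type and less RNA per cell cannot be told apart, and the part of atrial tissue in the changes below was not tested.

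Several genes of the actin cytoskeleton rose. A list held 42 actin cytoskeleton genes and targets of serum response factor (SRF). Of these, 11 rose and 0 fell, where 1.51% of all genes rose. The list's median log2 fold change was 0.28, against -0.002 over all genes. The list was drawn up after values of these genes had been seen, so the count describes them and tests nothing. Acta2 (chr19:34241090-34255590), smooth muscle alpha-actin, which the embryonic heart also uses, had 525.5, 468 and 355 CPM in PTU+PHE+PRO hearts, against 178, 142 and 163 CPM in PTU+PHE hearts. Its lowest value with propranolol was above its highest without (log2 fold change 1.48 ± 0.20, adjusted p = 0.00058), and the PTU+PHE+PRO hearts stood near the 365 to 470.2 CPM of saline hearts. Flna, filamin A, which crosslinks actin filaments, had 703, 511 and 611 CPM in PTU+PHE+PRO hearts, against 384, 293.5 and 263 CPM in PTU+PHE hearts (0.96 ± 0.14, adjusted p = 0.00058). Myl9, the regulatory light chain of non-muscle and smooth muscle myosin, had 314, 370.5 and 209.5 CPM in PTU+PHE+PRO hearts, against 151, 109 and 167 CPM in PTU+PHE hearts (1.07 ± 0.20).

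Srf itself, the transcription factor that binds CArG boxes near actin genes, had 276, 212 and 212 CPM in PTU+PHE+PRO hearts, against 159, 122 and 142 CPM in PTU+PHE hearts. The groups did not overlap (log2 fold change 0.725 ± 0.145, adjusted p = 0.0078). The adaptor proteins Pdlim7 (log2 fold change 0.84), Tgfb1i1 (0.74) and Zyx (0.57), the crosslinkers Actn4 (0.52) and Flnc (0.51), and Ccn2 and Ankrd1 made up the rest of the 11. Other members did not pass, among them Tagln (0.29 ± 0.17) and the skeletal actin Acta1, which had 9.09, 9.03 and 9.27 CPM in PTU+PHE+PRO hearts, against 11.3, 9.35 and 24.1 CPM in PTU+PHE hearts. In the fit of set A, 6 of the 11 were called: Srf, Acta2, Myl9, Flna, Pdlim7 and Ccn2. Leaving out each of the 6 libraries in turn kept Acta2, Myl9, Flna and Pdlim7 every time.

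The 250 bases before the start of 3 of the raised genes are shown because they hold the motif of the raised factor. They are RefSeq sequences of GRCm38.p6, written 5′ to 3′ on the strand of the gene, with each CArG box in capitals. Boxes were searched by their consensus, which reads the same on both strands.
Srf, chr17:46556163-46556412, minus strand: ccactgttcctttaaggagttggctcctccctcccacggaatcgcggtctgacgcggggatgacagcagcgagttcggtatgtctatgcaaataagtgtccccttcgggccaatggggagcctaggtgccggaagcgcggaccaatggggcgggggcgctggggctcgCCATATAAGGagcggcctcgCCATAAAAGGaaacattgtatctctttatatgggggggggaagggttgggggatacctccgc
Myl9, chr2:156775214-156775463, plus strand: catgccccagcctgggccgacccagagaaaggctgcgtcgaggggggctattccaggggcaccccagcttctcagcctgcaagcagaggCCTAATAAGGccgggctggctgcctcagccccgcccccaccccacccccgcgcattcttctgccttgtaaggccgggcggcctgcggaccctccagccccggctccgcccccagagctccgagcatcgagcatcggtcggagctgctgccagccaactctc
Actc1, chr2:114052876-114053125, minus strand: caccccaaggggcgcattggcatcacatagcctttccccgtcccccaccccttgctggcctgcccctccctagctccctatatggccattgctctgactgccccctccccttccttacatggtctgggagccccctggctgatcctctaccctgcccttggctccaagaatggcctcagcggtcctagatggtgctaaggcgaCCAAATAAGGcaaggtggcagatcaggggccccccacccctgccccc

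Srf had 2 boxes in this window, and Myl9 and Actc1 had 1 each. Of the raised genes, 214 matched the promoter table and 6 of these held a box (2.8%), against 1 of 202 lowered genes (0.495%) and 186 of 12632 genes tested (1.47%). Over the whole promoter table the share was 1.62%. Of the actin cytoskeleton list, 11 of 36 members with a promoter held a box (30.6%), against 2 of its 9 raised members (22.2%), and Acta1, Actg1 and Vcl were among those with a box that did not pass the test. The match is of letters alone, and a window without a box says only that the letters are not there. Actc1, cardiac alpha-actin, had 13760, 11440 and 8519 CPM in PTU+PHE+PRO hearts, against 9578, 7039 and 6571 CPM in PTU+PHE hearts; the groups overlapped (log2 fold change 0.54 ± 0.15, adjusted p = 0.048).

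Signals and matrix proteins were among the other large rises. Ccn2, a matrix protein induced by mechanical stress and TGF-beta, had 268, 419 and 429 CPM in PTU+PHE+PRO hearts, against 108, 138 and 155 CPM in PTU+PHE hearts (log2 fold change 1.475 ± 0.34, adjusted p = 0.023), a call kept in 2 of the 6 fits that left out 1 library. Inhba, a subunit of activin, had 8.235, 5.99 and 11.3 CPM in PTU+PHE+PRO hearts, against 3.14, 3.89 and 4.72 CPM in PTU+PHE hearts (1.12 ± 0.26). Of 22 TGF-beta and activin genes, a list also added after values were seen, Inhba and Tgfb2 (0.51) rose and 0 fell, where 1.51% of all genes rose, and neither was called in the fit of set A. Arid5a, an RNA-binding protein that stabilises inflammatory transcripts, had 33.4, 28.9 and 46.4 CPM in PTU+PHE+PRO hearts, against 9.24, 15.7 and 12.7 CPM in PTU+PHE hearts (1.53 ± 0.275, adjusted p = 0.0042). Nkd2, an inhibitor of Wnt signalling, had 119.9, 164 and 113.5 CPM in PTU+PHE+PRO hearts, against 56.0, 43.2 and 60.2 CPM in PTU+PHE hearts, and 3.765 to 5.23 CPM in saline hearts.

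Genes of other kinds rose as well. Prkag3, a regulatory subunit of AMP-activated kinase found mainly in skeletal muscle, had 12.1, 20.05 and 16.7 CPM in PTU+PHE+PRO hearts, against 5.93, 6.57 and 6.63 CPM in PTU+PHE hearts. Habp2, a hyaluronan-binding serine protease, had 16.1, 21.0 and 23.3 CPM in PTU+PHE+PRO hearts, against 8.19, 7.32 and 7.02 CPM in PTU+PHE hearts. Neither gene's groups overlapped, which was a condition for the 12 largest rises. The voltage-gated sodium channel Scn10a (log2 fold change 1.30), the metalloprotease Adamts8 (1.25), the retrotransposon-derived gene Rtl3 (1.20), the matrix protein Thbs4 (1.10) and the kinesin Kif26b (1.08) completed the 12 largest rises. Of 17 clock genes the repressors Cry1 (0.86 ± 0.10, adjusted p = 0.00012) and Cry2 (0.535 ± 0.13) rose and 0 fell, where 1.51% of all genes rose. The median of the 17 was -0.17, and 12 had a log2 fold change below 0. Cry1 was called in the fit of set A, and Cry2 was not. Cry1 had 18.3, 20.7 and 18.6 CPM in PTU+PHE+PRO hearts, against 10.4, 11.6 and 9.83 CPM in PTU+PHE hearts.

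**Figure D2:**
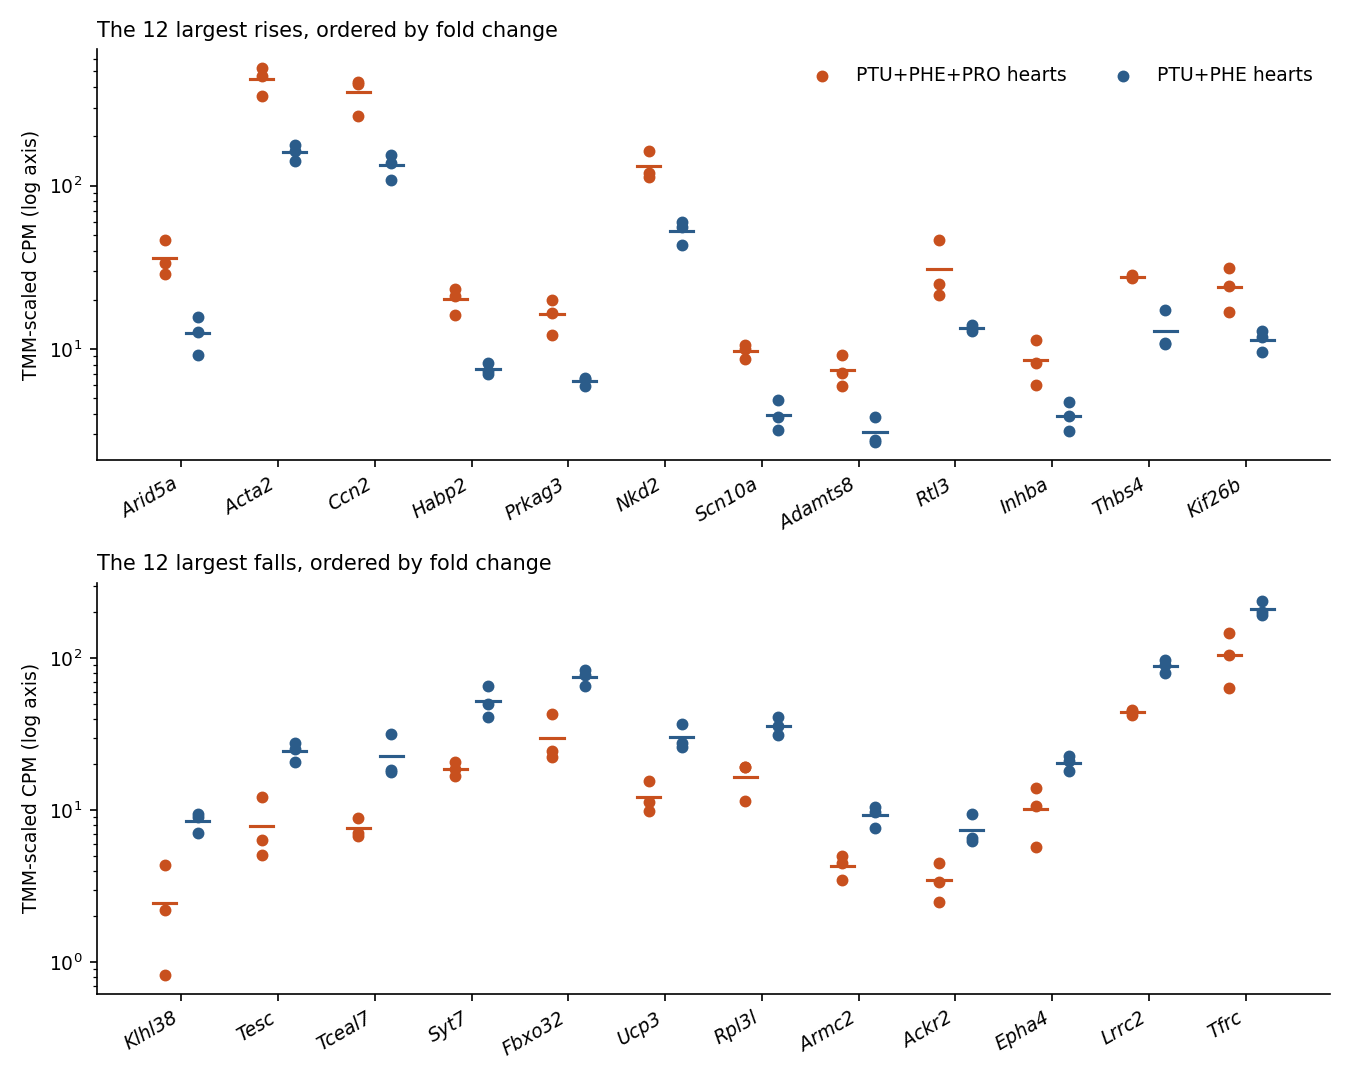
TMM-scaled CPM (log axis) in each heart for the 12 largest rises (top) and 12 largest falls (bottom), PTU+PHE+PRO in orange to the left of PTU+PHE in blue, with a bar at each mean of 3 hearts. Non-overlap of the groups was a condition for being drawn; Acta2 and Ccn2 are the most abundant of the rises, and Tfrc is the most abundant of the falls.

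The large falls held several genes of striated muscle. Of 23 genes of a list of muscle ubiquitin ligases, autophagy and FoxO factors, 7 fell and 0 rose, where 1.36% of all genes fell. This list was also drawn up after values had been seen, so the count describes its members and tests nothing. Its median was -0.24. Fbxo32 (chr15:58175879-58214932), the ubiquitin ligase atrogin-1, had 43.2, 22.3 and 24.6 CPM in PTU+PHE+PRO hearts, against 65.5, 77.2 and 83.7 CPM in PTU+PHE hearts (log2 fold change -1.325 ± 0.24, adjusted p = 0.0048). Saline hearts of set A had 97.5 to 175 CPM, so the propranolol hearts were the lowest of the 3 groups. Trim54, a ring-finger protein of the sarcomere, had 8.94, 7.21 and 7.86 CPM in PTU+PHE+PRO hearts, against 17.4, 13.1 and 16.7 CPM in PTU+PHE hearts (-0.97 ± 0.165, adjusted p = 0.0024). Foxo3, a transcription factor that drives such ligases in muscle, had 50.8, 37.5 and 41.6 CPM in PTU+PHE+PRO hearts, against 68.8, 75.8 and 63.3 CPM in PTU+PHE hearts (-0.68 ± 0.15). Klhl38 (-1.72), Asb14 (-0.85), Fbxo40 (-0.42) and Trim63 (-0.315), the ligase MuRF1, were the other members that fell. Fbxo32, Trim54 and Asb14 were called in the fit of set A and in each of the 6 fits without 1 library.

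Syt7 (chr19:10389090-10453180), a calcium sensor of vesicle release, had 20.8, 16.8 and 18.6 CPM in PTU+PHE+PRO hearts, against 65.2, 49.99 and 41.0 CPM in PTU+PHE hearts. The groups did not overlap, which was a condition for the 12 largest falls (log2 fold change -1.47 ± 0.185, adjusted p = 0.00029). Tceal7, of the transcription elongation factor A-like family, had 6.79, 8.93 and 7.04 CPM in PTU+PHE+PRO hearts, against 31.7, 18.4 and 17.8 CPM in PTU+PHE hearts. In saline hearts of set A it stood at 0.677 to 0.927 CPM. Rpl3l, a ribosomal protein that takes the place of Rpl3 in striated muscle, had 11.4, 19.2 and 19.2 CPM in PTU+PHE+PRO hearts, against 35.7, 31.1 and 41.3 CPM in PTU+PHE hearts. The calcium-binding protein Tesc (-1.61), the chemokine scavenger Ackr2 (-1.09), the ephrin receptor Epha4 (-1.03), the transferrin receptor Tfrc (-1.0), Armc2 (-1.10) and Lrrc2 (-1.01) were also among the 12 largest falls. Agtr1a, the type 1 angiotensin receptor, had 23.8, 25.8 and 20.15 CPM in PTU+PHE+PRO hearts, against 42.2, 34.8 and 39.7 CPM in PTU+PHE hearts (-0.74 ± 0.11, adjusted p = 0.0012).

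A few genes of fuel use fell. Of 30 genes of fatty acid uptake and oxidation (median log2 fold change -0.30), 3 fell and 0 rose, against 1.36% lowered among all genes. They were the fatty acid transporter Cd36 (-0.40), the carnitine acyltransferase Cpt2 (-0.42) and the beta-oxidation subunit Hadhb (-0.52), and none of the 3 was called in the fit of set A. Lpin1, which makes diacylglycerol and serves as a coactivator of fat oxidation genes, had 22.8, 17.7 and 17.2 CPM in PTU+PHE+PRO hearts, against 37.45, 33.2 and 28.95 CPM in PTU+PHE hearts (log2 fold change -0.79, adjusted p = 0.0015). Ucp3, a mitochondrial carrier induced by thyroid hormone and fatty acids, had 9.94, 15.6 and 11.3 CPM in PTU+PHE+PRO hearts, against 25.9, 27.6 and 36.9 CPM in PTU+PHE hearts and 65.3 to 89.7 CPM in saline hearts. The Ucp3 call was kept in 2 of the 6 fits that left out 1 library and was lost with sex as a covariate (adjusted p = 0.051). Hormone-sensitive lipase Lipe fell by 0.58 on the log2 scale. The 13 mitochondrially encoded genes (median -0.23), the 33 cytosolic ribosomal proteins (0.06) and the 20 genes of the citric acid cycle (-0.09) held no call.

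Genes of the beta-adrenergic pathway held single calls in several lists, against 2.87% called among all genes. Among 11 genes of cyclic AMP production the adenylyl cyclase Adcy7 rose (log2 fold change 0.78 ± 0.20, adjusted p = 0.031), and among 17 subunits and anchors of protein kinase A the anchoring protein Akap13 rose (0.49 ± 0.13, adjusted p = 0.033). Neither was called in the fit of set A. Adrb1, the main cardiac beta receptor, had 21.65, 9.70 and 8.71 CPM in PTU+PHE+PRO hearts, against 12.6, 15.2 and 13.45 CPM in PTU+PHE hearts, and the groups overlapped. Adrb3 reached at most 0.241 CPM in these hearts. Of 16 genes that are CREB factors, their coactivators or their targets, 1 was called, the coactivator Crtc3 (0.28 ± 0.08), and the median was 0.11. Nr4a1, an orphan receptor induced rapidly by cyclic AMP, had 68.45, 29.9 and 27.5 CPM in PTU+PHE+PRO hearts, against 49.6, 47.7 and 24.3 CPM in PTU+PHE hearts. Of 20 immediate early genes 0 were called by edgeR's test, with a median of -0.04.

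Of 15 genes that thyroid hormone induces, 1 fell, Ucp3, and 0 rose, where 1.36% of all genes fell. The median of the 15 was -0.27, and 13 had a log2 fold change below 0. Of 7 genes that thyroid hormone represses, 1 fell, Pln, and 0 rose. Myh6, the fast adult myosin, had 2393, 1473 and 1704 CPM in PTU+PHE+PRO hearts, against 2424, 2410 and 1602 CPM in PTU+PHE hearts and 30980 to 38620 CPM in saline hearts. Myh7, the slow fetal myosin, had 12580, 8942 and 9761 CPM in PTU+PHE+PRO hearts, against 11940, 11830 and 9550 CPM in PTU+PHE hearts and 1110 to 1510 CPM in saline hearts. Both myosins overlapped between the groups with and without propranolol, and both stood far from saline. Of 14 fetal sarcomere genes, Acta2 and Actc1 rose and 0 fell, where 1.51% of all genes rose.

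Cell cycle genes had medians above 0 and few calls. Of 30 genes of the G1/S phase, 1 rose, the kinase Cdk2 (0.35 ± 0.075, adjusted p = 0.013), where 1.51% of all genes rose. The median of the 30 was 0.40. Cdk2 had 52.5, 64.6 and 60.7 CPM in PTU+PHE+PRO hearts, against 44.55, 49.8 and 45.3 CPM in PTU+PHE hearts, and 26.3 to 27.2 CPM in saline hearts. Of 36 genes of the G2/M phase 0 were called by edgeR's test, with a median of 0.20. Igf2, a fetal growth factor, had 816.5, 906 and 877 CPM in PTU+PHE+PRO hearts, against 582, 574 and 726 CPM in PTU+PHE hearts (0.47 ± 0.09, adjusted p = 0.0082), and Hbegf, a ligand of the epidermal growth factor receptor, rose by 0.54. Cdk2, Igf2 and Hbegf were not called in the fit of set A. The Cdk2 and Igf2 calls were each kept in 5 of the 6 fits that left out 1 library, and the Hbegf call in 1.

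**Figure D3:**
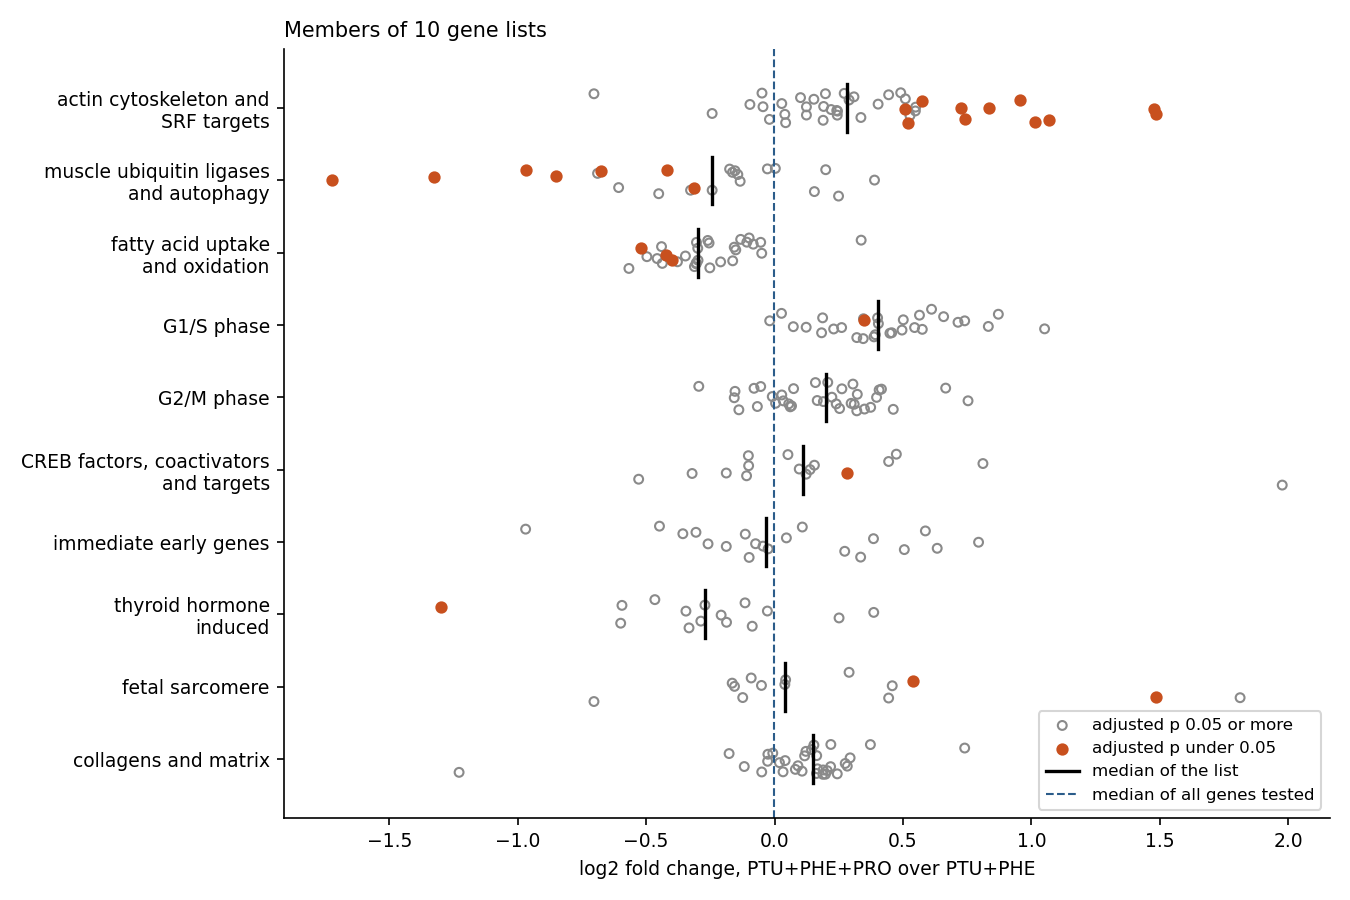
Log2 fold change of PTU+PHE+PRO over PTU+PHE for each tested member of 10 gene lists, with called genes filled, a black bar at each list's median and a dashed line at the median of all genes tested (-0.002). The called actin cytoskeleton genes lie on the right and the called muscle ubiquitin ligases on the left, and the CREB, immediate early and thyroid lists hold at most 1 call each; the first 2 lists were drawn up after values had been seen.

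The same drug was tested on 2 simpler backgrounds, in libraries not shared with this pair. Propranolol on PHE alone called 1112 genes (5.82%), and propranolol on PTU alone, in set B, called 123 (0.643%). Fits of only the groups compared called 924 on PHE, 1028 on PTU and 3 on PTU plus PHE. The order of the backgrounds by count, and the shares below, therefore depend on the fit. Of the 549 genes, 80 were also called on PHE, which is 14.6% of the 549 and 7.2% of the 1112, and 73 of the 80 moved the same way. With propranolol on PTU the overlap was 22 genes, 4.0% of the 549 and 17.9% of the 123, and 18 moved the same way. Set and alpha block changed together in that second comparison, so their parts cannot be told apart.

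The calls common to all 3 backgrounds were 5 genes, named here after their values were seen: Strit1 and Sod3 fell in each, Ncam1 and Sorcs2 rose in each, and Rsrp1 differed in sign. Ncam1, a neural and embryonic cell adhesion molecule, had 92.4, 85.1 and 87.3 CPM in PTU+PHE+PRO hearts, against 59.85, 56.5 and 49.8 CPM in PTU+PHE hearts (0.67 ± 0.09, adjusted p = 0.00058). On the other backgrounds it rose by 0.58 ± 0.09 with PHE and 0.66 ± 0.09 with PTU. Sorcs2, a sorting receptor for neurotrophins, rose by 1.08 ± 0.19, by 0.855 ± 0.19 on PHE and by 1.03 ± 0.18 on PTU. Sod3, the extracellular superoxide dismutase, fell by 0.60 ± 0.15, and by 0.50 and 0.82 on the other backgrounds. The Sod3 call on PTU plus PHE was kept in 1 of the 6 fits that left out 1 library and was lost in the fit of set A (adjusted p = 0.18), where those of Strit1, Ncam1 and Sorcs2 were kept in all 6 and in set A.

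Some effects differed between backgrounds by a test of the difference itself. The propranolol effect on PTU plus PHE differed from that on PHE for 200 genes (1.05%) and from that on PTU for 47 genes (0.246%). Ankrd1, a stress-responsive titin-binding protein, had 1125, 2681 and 2335 CPM in PTU+PHE+PRO hearts, against 862, 722 and 1458 CPM in PTU+PHE hearts, and 591, 306 and 407 CPM in PHE+PRO hearts, against 1215, 1168 and 1073 CPM in PHE hearts. Propranolol thus went with more Ankrd1 on average in the first pair and less in the second (difference 2.42 ± 0.395 on the log2 scale, adjusted p = 0.0038). In the first pair the groups overlapped. The call of that rise was kept in 2 of the 6 fits that left out 1 library. It was lost in the fit of set A and with sex as a covariate. For Ccn2, which rose in the first pair, the fall in the second did not pass the test by itself (-0.68, adjusted p = 0.24), with 91.1, 74.7 and 96.1 CPM in PHE+PRO hearts, against 179, 130.5 and 108 CPM in PHE hearts (difference 2.15 ± 0.48, adjusted p = 0.032). Lpin1 showed the reverse pattern, at 154, 166 and 186 CPM in PHE+PRO hearts, against 111, 101.5 and 86.3 CPM in PHE hearts (difference -1.545 ± 0.175, adjusted p = 8.8e-05).

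For 3 of the 16 genes of the CREB list, Nr4a1, Sik1 and Ppargc1a, the effect differed from that on PHE. Nr4a1 had 201, 267 and 469 CPM in PHE+PRO hearts, against 24.4, 12.8 and 12.7 CPM in PHE hearts, where PTU+PHE+PRO and PTU+PHE hearts overlapped (difference -4.17 ± 0.84, adjusted p = 0.024). Sik1, a kinase induced by cyclic AMP, had 78.25, 26.9 and 40.1 CPM in PTU+PHE+PRO hearts, against 52.3, 49.6 and 34.2 CPM in PTU+PHE hearts, and 171, 234 and 301 CPM in PHE+PRO hearts, against 29.8, 27.7 and 36.6 CPM in PHE hearts. Its difference was -2.81 ± 0.59 (adjusted p = 0.026). Both genes ranged widely in saline hearts of set A, at 56.3 to 246 CPM for Nr4a1 and 58.65 to 185.5 CPM for Sik1.

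Against the PTU background, Ucp3 changed sign. PTU+PRO hearts had 10.45, 20.1 and 19.5 CPM of Ucp3, against 3.38, 3.92 and 1.78 CPM in PTU hearts, and it fell on PTU plus PHE (difference -3.74 ± 0.47, adjusted p = 0.00087). The PTU+PHE hearts started from 25.9 to 36.9 CPM and the PTU hearts from 1.78 to 3.92 CPM, and the ranges of the 2 propranolol groups overlapped. Rsrp1, an arginine- and serine-rich protein, had 225, 258 and 239 CPM in PTU+PHE+PRO hearts, against 385.5, 342 and 299 CPM in PTU+PHE hearts, and 460, 427 and 467 CPM in PTU+PRO hearts, against 239, 247 and 242 CPM in PTU hearts (difference -1.40 ± 0.16, adjusted p = 0.00012). In the fits restricted to the libraries compared, 9 genes differed from PHE and 3 from PTU.

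**Figure D4:**
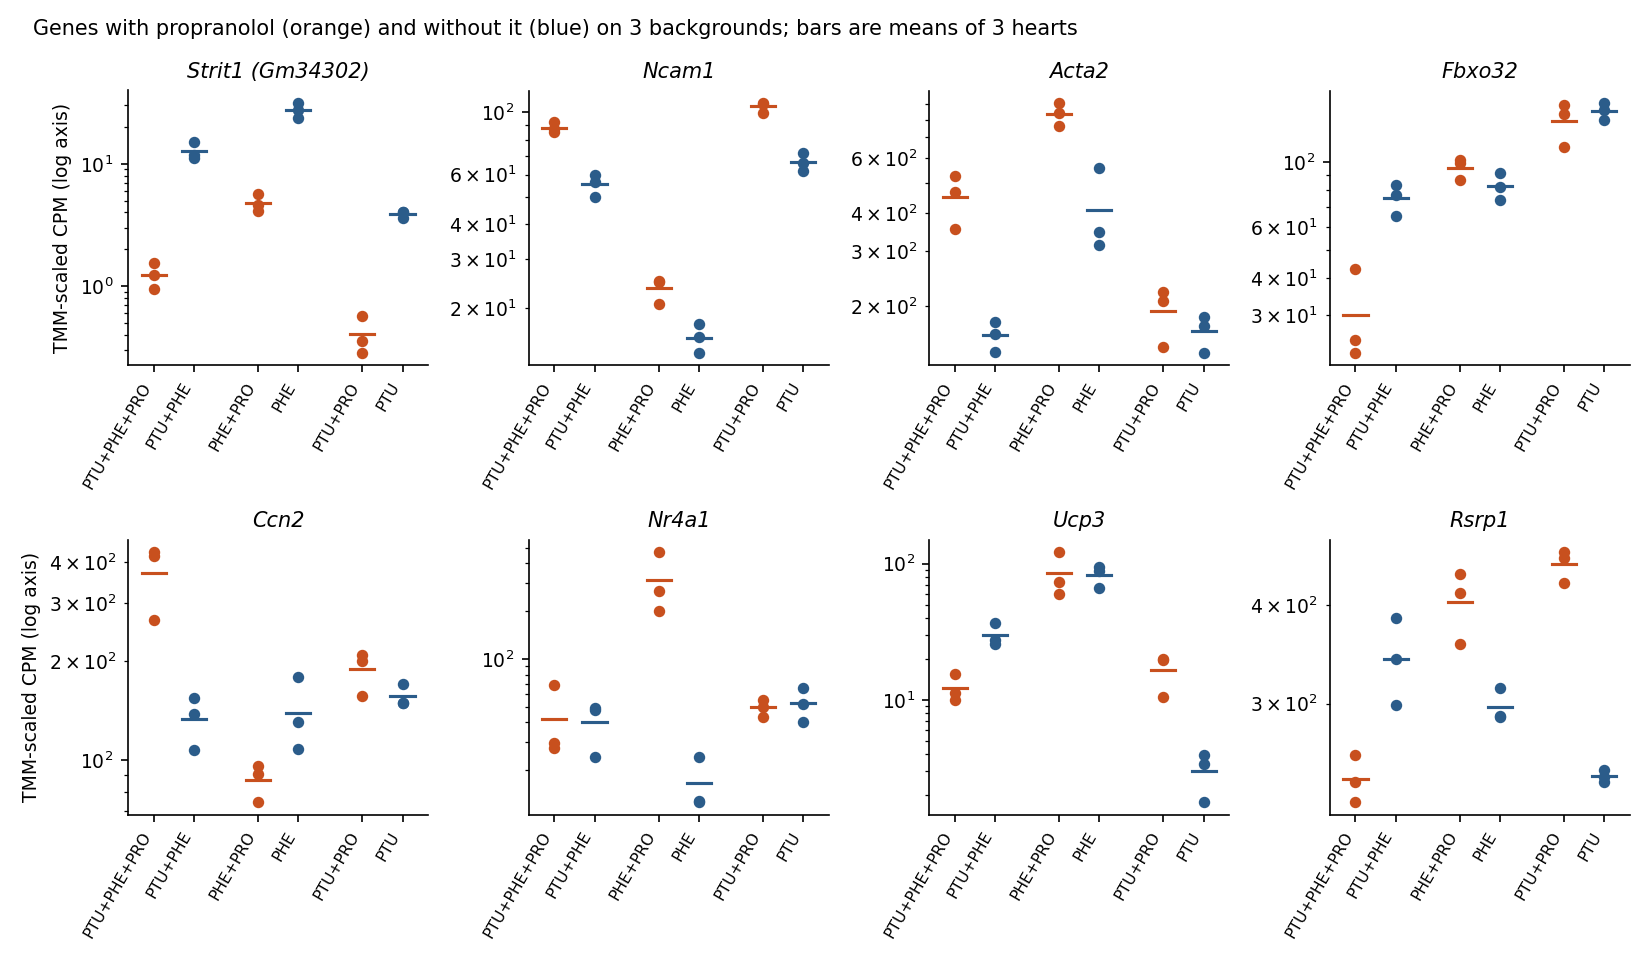
TMM-scaled CPM (log axis) of 8 genes in each heart of 3 pairs of groups, with propranolol in orange left of the same background without it in blue and bars at the means. Strit1 is lower and Ncam1 higher with propranolol in all 3 pairs, Ucp3 is lower with propranolol in the PTU plus PHE pair and higher in the PTU pair, Ccn2 separates upward in the PTU plus PHE pair, and Nr4a1 separates in the PHE pair.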

How the data were processed

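Whole hearts of CD-1 mice were profiled by RNA sequencing in 27 libraries of 9 groups. The deposited table holds raw read counts per gene for 51826 Ensembl genes, of which 51633 matched a symbol and 13440 had no read. Per the submitters' processing notes, the tools named for the deposited counts are cutadapt 1.9, STAR 2.5.2b and featureCounts 1.5.1 with the mm10 build; strandedness is not given in the sources used here, so reads of a gene and of an antisense partner cannot be told apart. In the header of the deposited counts 2 columns share the name PHE+PRO 2, and they were used as replicates without a number.

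Counts were tested in R 4.3.3 with edgeR 4.0.16 (limma 3.58.1): genes were kept by filterByExpr (minimum count 10, minimum total 15), scaled by TMM, and fitted by the quasi-likelihood method with robust dispersion and 9 group means over all 27 libraries (18 residual degrees of freedom, prior count 0.125). Tests were two-sided, and p-values were Benjamini-Hochberg adjusted over all 19119 genes, with 0.05 as the threshold. Each SE, given after ±, is the absolute log2 fold change divided by the square root of the test's F statistic. It thus rests on the spread over all 27 libraries. Differences between backgrounds were tested as contrasts of contrasts. The fitting code was tested on simulated data.

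The 12 largest rises and 12 largest falls were named among called genes with a symbol other than a predicted gene model, a mean of at least 5 CPM and no overlap between the groups. All members of 4 lists (beta receptors, CREB factors, coactivators and targets, fetal sarcomere, thyroid-induced genes), up to 4 called members of each of the other lists, and the 5 largest differences in each direction per background could also be named. Other genes were picked after their values were seen, among them Strit1, Myl9, Flna, Tgfb1i1, Pdlim7, Srf, Actn4, Flnc, Zyx, Cry1, Agtr1a, Lpin1, Cacna2d2, Trim54, Trim63, Foxo3, Fbxo40, Asb14, Nppa, Sorcs2, Ncam1, Sod3 and Rsrp1. The members and the 73 gene lists were chosen with earlier results of these data known, and 3 lists were added after values were seen.

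Libraries held 30791885 to 78913915 assigned reads, and a count of 3 was taken as the floor, which covers counting error only. Alternatives were RLE size factors, no filter, DESeq2 1.42.0, fits of fewer libraries, replicate number as a block, sex, transcript length, and each library left out. Same-numbered hearts had deviations that correlated at -0.04, -0.368 and -0.436, so the numbers were not used as pairs. Promoters came from RefSeq (GRCm38.p6). Some genes are not reported here.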

Additional observations from a re-analysis of the deposited data

Results flagged for a closer look

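The effect of propranolol on PTU plus PHE differed from its effect on PHE alone, by a test of the difference itself, for 200 genes. The named differences, as log2 effect on PTU plus PHE minus log2 effect on PHE, were positive for Ankrd1 (2.42), Prune2 (2.40), Rasl11b (2.23), Ccn2 (2.15) and Rrm2 (1.87). They were negative for Nr4a1 (-4.17), Sik1 (-2.81), Fam222a (-2.38), Gem (-2.37) and Apold1 (-2.33).

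Against the effect on PTU alone, 47 genes passed the same kind of test, and there the set changed together with the alpha block. Positive differences were those of Padi4 (10.9), Prkag3 (1.64), Astn2 (1.21), Dnajb5 (1.19) and Creb5 (1.18), and negative ones those of Ucp3 (-3.74), Rsrp1 (-1.40), Klf10 (-1.37), Senp8 (-1.235) and Lipe (-1.225).

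For Padi4, a peptidyl arginine deiminase of neutrophils, the rise on PTU plus PHE rests on 1 heart, and the fall on PTU (-6.65 on the log2 scale, adjusted p = 0.01) is present in all hearts of that pair. It had 19.45, 0.263 and 0.411 CPM in PTU+PHE+PRO hearts, against 0.248, 0.615 and 0.2035 CPM in PTU+PHE hearts, and 0.177, 0.0588 and 0.155 CPM in PTU+PRO hearts, against 21.8, 4.65 and 14.0 CPM in PTU hearts. The 14 neutrophil markers summed to 33.1, 69.9 and 104 CPM in PTU+PHE+PRO hearts, against 57.95, 127 and 61.3 CPM in PTU+PHE hearts, so the heart with high Padi4 had the lowest sum.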

How the results depend on the processing

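For propranolol on PTU plus PHE (549 changed, 289 raised, 260 lowered), DESeq2 called 1111 (626 raised, 485 lowered), the fit of set A 70 (36 and 34), the fit of the 6 libraries 3 (1 and 2), and no filter on low counts raised 179. Leaving out single libraries gave 229 to 1041 genes changed, 104 to 558 raised and 122 to 514 lowered. With a replicate block, 0 genes were called in this comparison (0 raised, 0 lowered; 661 at an unadjusted p under 0.05), 848 for propranolol on PTU, and 0 for the difference from the PTU background. For propranolol on PHE (1112), DESeq2 gave 1730, the fit of set A 232 and single libraries left out 499 to 743. For propranolol on PTU (123), the values were 322 with DESeq2, 202 with no filter, 1028 with the groups compared only, and 35 to 109 with single libraries left out. The difference from PHE (200) had 581 calls with DESeq2, 11 in set A, 9 with the groups compared only and 69 to 633 with single libraries left out. The difference from PTU (47) had 263, 108 with no filter, 3 with the groups compared only, 31 with sex, 179 without the 2 libraries low in long transcripts (chosen after seeing the data), and 3 to 360 with single libraries left out. With single libraries left out, the log2 fold change of Padi4 ran between -0.102 (without PTU+PHE+PRO heart 1) and 4.89. The cause of these shifts was not tested. The 549 genes kept their sign in 540 to 549 cases in every setting tried. Genes not tested in a setting are missing from its count, so a count under 549 need not mean a reversed sign. All settings drew on the same hearts, in whole or in part, so a kept sign is not independent support. The least deep library, PTU+PHE+PRO heart 3, limits what can be detected for genes of few reads.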

Other observations

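Several genes outside the groups described above changed with propranolol on PTU plus PHE. Dnajb5, a heat shock protein cochaperone, had 87.2, 68.5 and 79.9 CPM in PTU+PHE+PRO hearts, against 44.8, 45.7 and 43.5 CPM in PTU+PHE hearts. Creb5, a transcription factor of the CREB family, had 57.0, 63.0 and 85.0 CPM in PTU+PHE+PRO hearts, against 36.3, 39.85 and 34.5 CPM in PTU+PHE hearts. Both genes rose without overlap between the groups, by log2 fold changes of 0.81 ± 0.14 for Dnajb5 (adjusted p = 0.0024) and 0.89 ± 0.17 for Creb5 (adjusted p = 0.0058). Prox1, a transcription factor of lymphatic endothelium and heart muscle, had 46.0, 45.1 and 48.8 CPM in PTU+PHE+PRO hearts, against 75.9, 71.6 and 62.3 CPM in PTU+PHE hearts (log2 fold change -0.59 ± 0.12, adjusted p = 0.0097). The 7 lymphatic markers, of which it is 1, summed to overlapping levels, at 93.6, 83.5 and 95.9 CPM in PTU+PHE+PRO hearts, against 119, 114 and 94.8 CPM in PTU+PHE hearts.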
